A study of Homo sapiens with 12 samples.

Results

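Interferon response genes are genes whose transcription a cell raises after it has sensed viral or misplaced nucleic acid or after an interferon has bound its receptor. The list examined here names 40 human genes, grouped by role as 7 genes of RNA and DNA sensing, 17 antiviral effectors, 5 genes of ISG15 and its conjugation, 9 transcription factors and nuclear regulators, and 2 genes of antigen processing. Of the 40 genes, 39 had a probe set whose annotation names that gene alone, and where a gene had several, the brightest one on average represented it. STAT2, a transcription factor that type I interferon activates, was not analysed here. Of the 39 genes, 34 passed the filter of a log2 level above 4 on at least 3 arrays, out of 10966 tested genes (22829 probe sets). The other 5, OAS2, MX1, MX2, XAF1 and IFI27, did not exceed log2 3.43 on any array.

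The arrays measured HK-2 cells, an immortalised line of human kidney proximal tubule epithelium, with 3 biological replicates in each of 4 groups. Cells had received a high dose of Nnm, the compound's name as the labels give it, for 24 h or for 48 h, and vehicle controls were taken at 24 h and at 48 h. Nnm and control cells were plated the same way in medium with growth factor and hydrocortisone, and the sources used here state no concentration of Nnm. Nothing states that replicates came from separately thawed cultures, so the spread between them may be partly technical.

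In this pathway, receptors such as IFIH1 and RIGI bind viral RNA and start the production of interferon. Secreted interferon then acts through its receptor and the kinases JAK1, JAK2 and TYK2 on transcription factors, and a complex that holds STAT2 and IRF9 binds a DNA element named the interferon-stimulated response element. The products include sensors, proteins that block viral translation or assembly, the ubiquitin-like protein ISG15, and parts of the machinery that presents peptides to T cells. Some of these genes are also switched on by IRF factors with no interferon present.

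At 24 h, 9 of the 34 tested genes rose in Nnm-treated cells and OAS3 fell. Of all tested probe sets, 7.32% were called higher and 7.42% lower at that time. At 48 h 8 genes rose and none fell, against 5.74% of all tested probe sets called higher and 4.44% called lower. OAS1, IFIT2, IFI44, HERC5 and PARP14 rose at both times, by 1.54 to 3.07 times at 24 h and by 1.55 to 4.02 times at 48 h. DDX60, IFIH1, ISG20 and USP18 were called at 24 h only, and IFIT1, OASL and PSMB9 at 48 h only. ISG15, BST2, IFITM1 and IFITM3, which are among the best known products of an interferon response, passed the test at neither time. None of the 8 measured interferon genes exceeded a log2 level of 2.59 on any array.

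The element bound by the complex with STAT2 and IRF9 has a core of paired GAAA boxes, and the members' promoters were searched for 2 boxes with 2 bases between them (GAAANNGAAA, either strand). The windows were RefSeq promoters of GRCh38.p14, from 250 bases before to 50 bases after the start of the gene. A window was found for 34 of the 40 genes, and 23 of them (67.6%) held at least 1 match, against 3.57% of all 35116 windows and 4.38% of 27305 genes. Of 9 genes that rose and have a window 7 hold it, and of 20 tested genes that were not called 13 do, a difference that was not tested. The stretches below come from called genes with a match, chosen by the smallest p, and show how the boxes are arranged in genes that rose and in OAS3, which fell at 24 h. Each is 5′ to 3′ on the strand of the gene, with 35 bases on each side of the first match in the window. Capitals mark the boxes of every match in the stretch with the bases between them. Boxes on the opposite strand read as TTTC.
ISG20: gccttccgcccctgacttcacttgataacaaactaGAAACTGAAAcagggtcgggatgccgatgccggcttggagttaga
HERC5: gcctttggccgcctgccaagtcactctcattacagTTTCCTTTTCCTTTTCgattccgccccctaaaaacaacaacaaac
PARP14: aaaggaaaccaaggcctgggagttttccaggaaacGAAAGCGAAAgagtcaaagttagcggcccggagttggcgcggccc
IFIT1: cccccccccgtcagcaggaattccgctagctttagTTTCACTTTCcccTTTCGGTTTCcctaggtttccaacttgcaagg
IFIH1: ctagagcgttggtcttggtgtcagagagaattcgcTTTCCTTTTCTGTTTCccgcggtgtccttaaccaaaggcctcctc
OAS3: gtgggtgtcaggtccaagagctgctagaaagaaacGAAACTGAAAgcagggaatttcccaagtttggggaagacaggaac
They lie at chr15:88638912-88638991 (plus strand, ISG20), chr4:88456959-88457038 (plus, HERC5), chr3:122680775-122680854 (plus, PARP14), chr10:89392472-89392551 (plus, IFIT1), chr2:162318799-162318878 (minus, IFIH1) and chr12:112938296-112938375 (plus, OAS3). In ISG20 the match starts 69 bases before the start of the window's transcript and is the only one in the window, and in PARP14 it starts 29 bases before. In HERC5 and IFIH1 3 boxes follow each other at the same spacing, so that 2 matches overlap, and each of these windows holds 3 matches in all. In IFIT1 there are 2 separate matches, the first 116 bases before the start. OAS1 and PSMB9, which rose, have windows without a match, and OASL, IFIT2 and USP18 have no window in the table used. A match describes letters in a window and shows no binding. The list names known interferon response genes, so its higher share of matches can follow from that choice and is no result of these arrays.

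The arrays differed in one respect that touches all results below. Nnm replicate 2 lay closer to the controls than the other Nnm arrays at both times: its correlation with the mean of the controls of its time over tested probe sets was 0.978 at 24 h and 0.982 at 48 h, against 0.926 to 0.938 for Nnm replicates 1 and 3. At 24 h 843 probe sets lay at least 2-fold from the same-numbered control in replicate 2, against 5488 and 5328 in replicates 1 and 3, and at 48 h 807 against 5005 and 4098. The labels mark no difference between the replicates. Array medians ran from log2 2.91 to 2.98, and 22023 to 22228 of 54675 probe sets exceeded log2 4 on an array. Of 14 markers of proximal tubule and kidney epithelium, 6 passed the filter (DPP4, PAX8, CDH2, KRT8, KRT18 and HAVCR1), whereas the apical receptors LRP2 and CUBN, the water channel AQP1, the transporters SLC34A1 and SLC22A6, GGT1, ANPEP and PAX2 stayed under it. All 12 measured leukocyte markers stayed at or below log2 3.04 on every array and all 4 dendritic cell markers at or below 3.00. Of 8 fibroblast markers COL1A1, DCN, LUM and ACTA2 passed the filter, as did the endothelial marker PECAM1 and the podocyte markers SYNPO and PODXL, and the 4 measured distal nephron markers did not. COL1A1 had log2 levels of 8.12, 8.53 and 7.43 in Nnm cells at 24 h, against 9.01, 8.76 and 8.72 in controls, a change of -0.80 (adjusted p = 0.0729, and 0.0334 with the replicate block). SYNPO at 24 h (0.60, adjusted p = 0.0778) and PODXL at 48 h (0.71, adjusted p = 0.0707) passed only with the replicate block (0.0462 and 0.0308). CDH2 rose by 0.75 at 48 h (adjusted p = 0.0483). The part of these markers in the results below was not tested.

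The count of 9 genes higher at 24 h is 9 of 34, and 7.32% of all tested probe sets were called higher at 24 h by the same limma fit. The 1 gene lower at 24 h stands beside 7.42% of all tested probe sets. At 48 h the 8 genes higher stand beside 5.74% of probe sets called higher, and the 0 genes lower beside 4.44% called lower. The counts by role given below stand beside the same shares. USP18, which is among the 9, passed the filter on Nnm arrays alone. A call is a Benjamini-Hochberg adjusted p under 0.05 over all tested probe sets in a limma fit of the 12 arrays. At an unadjusted p under 0.05, 16 of the 34 genes passed at 24 h, against 35.8% of all tested probe sets. At 48 h 17 genes passed, against 30.6% of all tested probe sets, and 0 of these 17 were lower. The median log2 change of the 34 genes was 0.38 at 24 h and 0.55 at 48 h, and that of all tested probe sets was -0.01 at 24 h and 0.01 at 48 h.

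Same-numbered arrays deviated together, and a fit with the replicate number as a block called 11 genes higher and 3 lower at 24 h, where 14.2% of all probe sets were higher and 15.1% lower. In that fit 13 genes were higher and 0 lower at 48 h, where 11.9% of all probe sets were higher and 10.2% lower. It added SAMD9, IFI35, IRF9 and TAP1 at 24 h and DDX60, IFIT3, IRF1, DTX3L and TRIM21 at 48 h, and lost none. Without both Nnm arrays numbered 2, 14 genes were higher and 5 lower at 24 h, and 17 higher and 2 lower at 48 h. In that fit 23.4% of all probe sets were called higher at 24 h, which is 5334 of the 10730 called in either direction. At 48 h 22.3% were called higher, which is 5091 of the 9605 called in either direction. The 24 h count of 9 was 0 without Nnm replicate 1, 0 without Nnm replicate 3, 0 without control replicate 3 and 2 without control replicate 1. Over all tested probe sets the 24 h calls in either direction fell from 3366 to 86, 192, 81 and 404 in the same order. The 48 h count of 8 was 1 without Nnm replicate 1, 1 without Nnm replicate 3, 1 without control replicate 1, 3 without control replicate 3, and 14 without Nnm replicate 2 of either time. Over all tested probe sets the 48 h calls fell from 2323 to 243, 207, 302 and 403 in the same order. They were 4607 without Nnm replicate 2 of 24 h and 6117 without that of 48 h. Leaving out Nnm replicate 1 or Nnm replicate 3 of the time compared ended each call of the 34 genes except that of OAS1 at 48 h.

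**Figure D1:**
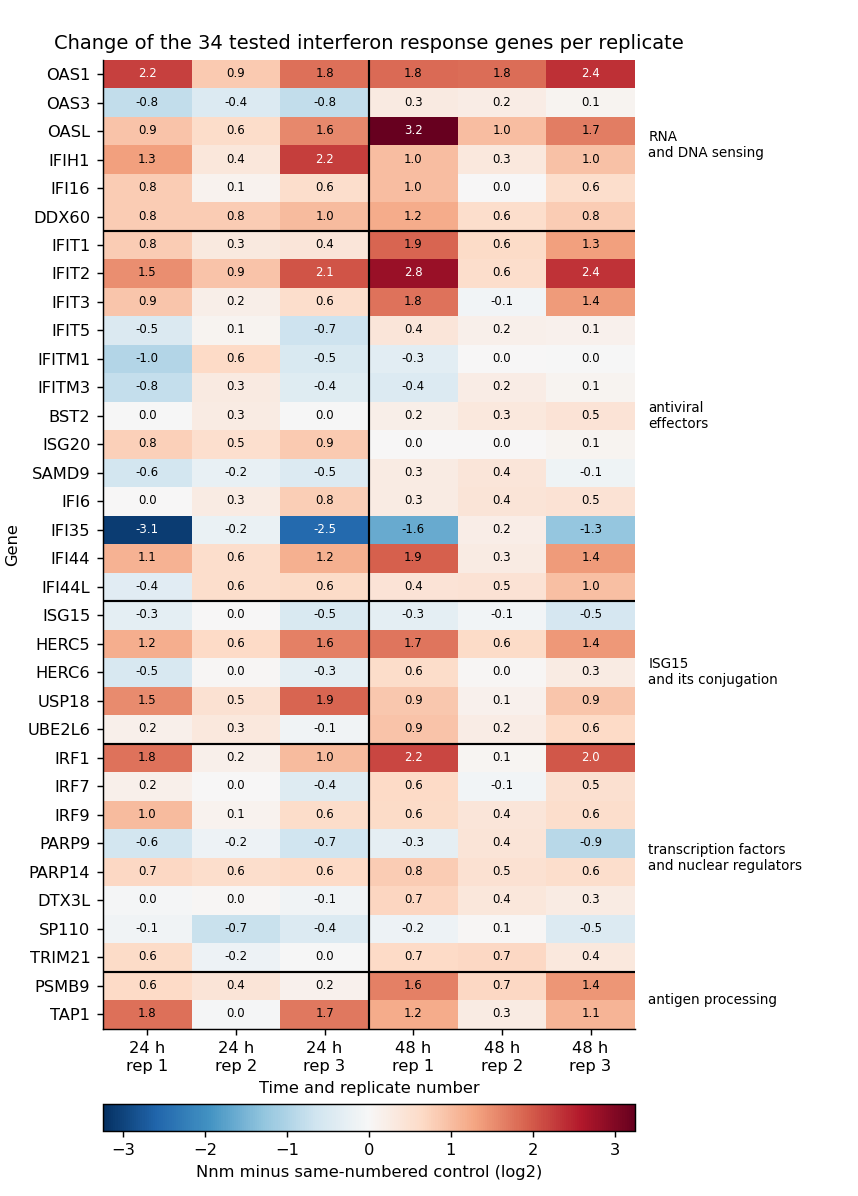
Log2 difference between each Nnm array and the control array of the same replicate number for the 34 tested genes, grouped by role, at 24 h (left) and 48 h (right); red is higher and blue lower in Nnm. OAS1, OASL, IFIT2 and HERC5 were higher in all 3 replicates at both times, whereas IFI35 was clearly lower in replicates 1 and 3 only.

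Without any test, the 3 Nnm values lay above all 3 control values for 13 of 34 genes at 24 h, against 18.4% of all probe sets, and for 17 of 34 at 48 h, against 18.7%. At both times this held for 9 genes, OAS1, OASL, IFIH1, DDX60, IFIT2, IFI6, IFI44, HERC5 and PARP14, against 10.8% of all probe sets.

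Among the sensors, OAS1, which makes the short adenylate chains that activate an RNA-degrading enzyme, had the largest rise of the 34 genes at both times. Its log2 levels were 6.14, 5.01 and 5.81 in Nnm cells at 24 h, against 3.92, 4.16 and 4.03 in controls, and 6.05, 6.05 and 6.63 in Nnm cells at 48 h, against 4.20, 4.24 and 4.27 in controls. All Nnm arrays lay above all controls at both times, and the controls lay close to the filter level. The log2 change was 1.62 (SE 0.26, adjusted p = 0.0107) at 24 h and 2.01 (SE 0.26, adjusted p = 0.00536) at 48 h. The 48 h call held in 21 of 21 alternative settings, with adjusted p from 5.70e-05 to 0.0446.

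OASL, a relative of OAS1 that makes no adenylate chains and binds RIGI, had log2 levels of 6.84, 6.95 and 7.53 in Nnm cells at 24 h, against 5.92, 6.37 and 5.95 in controls. At 48 h the levels were 7.45, 7.63 and 7.67 in Nnm cells, against 4.21, 6.64 and 6.01 in controls. The Nnm values were close together at 48 h while control replicate 1 lay well below the other controls. OASL rose at 48 h by 1.96 (log2, SE 0.49, adjusted p = 0.0347). Without control replicate 1 of 48 h the change was 1.26 and was not called, and the call held in 12 of 21 alternative settings. At 24 h the change of 1.03 did not pass the test (adjusted p = 0.159). A second OASL probe set was called at both times, with changes of 1.57 at 24 h (adjusted p = 0.0219) and 1.86 at 48 h (adjusted p = 0.0151).

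IFIH1, which encodes the long double-stranded RNA sensor MDA5, had log2 levels of 8.78, 8.01 and 9.12 in Nnm cells at 24 h, against 7.44, 7.65 and 6.88 in controls, and 8.26, 8.35 and 8.36 in Nnm cells at 48 h, against 7.27, 8.01 and 7.40 in controls. The groups did not overlap at either time, and Nnm replicate 2 lay lowest at 24 h. The change was 1.31 at 24 h (SE 0.30, adjusted p = 0.0248) and 0.76 at 48 h (adjusted p = 0.120). DDX60, a helicase described as a cofactor of RNA sensing, had levels of 10.05, 10.57 and 10.23 in Nnm cells at 24 h, against 9.22, 9.74 and 9.21 in controls. At 48 h DDX60 stood at 10.31, 10.62 and 10.25 in Nnm cells, against 9.11, 10.06 and 9.43 in controls. Its replicate 2 was the highest of each group of 3, and its change was 0.89 at 24 h (SE 0.25, adjusted p = 0.0422) and 0.86 at 48 h (adjusted p = 0.0561, and 0.00879 with the replicate block).

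OAS3 moved the other way at 24 h. This largest of the adenylate synthases had log2 levels of 6.71, 7.19 and 7.07 in Nnm cells at 24 h, against 7.52, 7.63 and 7.87 in controls, and 7.26, 7.15 and 7.31 in Nnm cells at 48 h, against 6.95, 6.92 and 7.22 in controls. OAS3 fell by 0.68 at 24 h (SE 0.16, adjusted p = 0.0252), with no overlap, and its change at 48 h was 0.21 (adjusted p = 0.406). The controls themselves were lower at 48 h than at 24 h, by -0.64 on the log2 scale (unadjusted p = 0.00214, adjusted p = 0.404). IFI16, a sensor of DNA, ranged from 11.70 to 12.18 in Nnm cells at 24 h, against 11.35 to 11.59 in controls, and its change of 0.50 did not pass the test (adjusted p = 0.133). The 7 sensing genes thus held 3 that rose and 1 that fell at 24 h, and 2 that rose at 48 h, out of 6 tested.

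**Figure D2:**
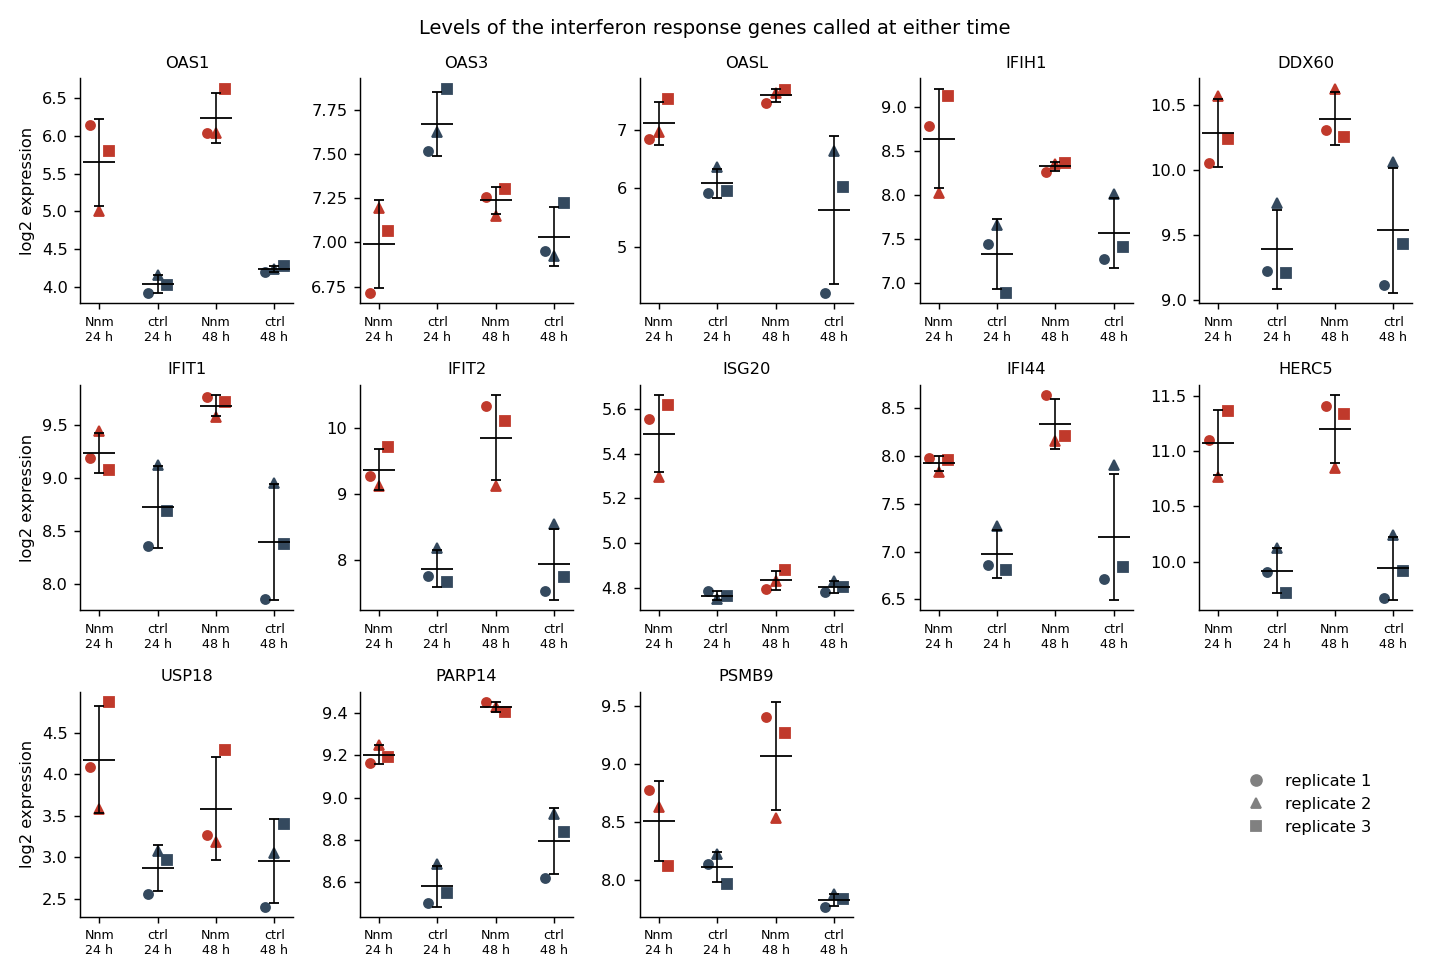
Log2 expression of the 13 genes called at 24 h or 48 h on each of the 12 arrays, with Nnm (red) left of its control (dark) at each time, symbols for replicate number, and black bars for the mean and SD (n = 3). The vertical scale differs between panels and does not start at 0; OAS1 and PARP14 show no overlap between groups at either time, and the ISG20 probe set shown has higher Nnm values at 24 h and overlapping groups at 48 h.

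Of the antiviral effectors, 13 of 17 were tested, 3 rose at 24 h and 3 at 48 h. IFIT2 belongs to a family that binds viral RNA and slows translation. Its log2 levels were 9.27, 9.12 and 9.72 in Nnm cells at 24 h, against 7.76, 8.19 and 7.67 in controls, and 10.33, 9.12 and 10.10 in Nnm cells at 48 h, against 7.53, 8.55 and 7.74 in controls. Replicate 2 was the lowest Nnm array and the highest control at both times, yet the groups did not overlap. IFIT2 rose by 1.49 at 24 h (SE 0.35, adjusted p = 0.0255) and by 1.91 at 48 h (SE 0.35, adjusted p = 0.0145), and its second probe set was called at both times as well.

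IFIT1, which binds RNA whose cap lacks the methyl groups of host messages, had log2 levels of 9.19, 9.44 and 9.08 in Nnm cells at 24 h, against 8.36, 9.12 and 8.69 in controls. The groups overlapped there, and the change of 0.51 did not pass the test (adjusted p = 0.194). At 48 h IFIT1 stood at 9.75, 9.57 and 9.71 in Nnm cells, against 7.87, 8.95 and 8.38 in controls, and rose by 1.28 (SE 0.27, adjusted p = 0.0207). IFIT3, a partner that stabilises IFIT1, changed by 1.01 at 48 h (adjusted p = 0.0904, and 0.0475 with the replicate block). At 48 h its levels were 11.17, 9.58 and 10.91 in Nnm cells, against 9.40, 9.67 and 9.54 in controls, so that Nnm replicate 2 lay inside the control range. A second IFIT3 probe set was called at 48 h (1.27, adjusted p = 0.0361).

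IFI44, a cytoplasmic protein of the interferon response, had log2 levels of 7.98, 7.84 and 7.96 in Nnm cells at 24 h, against 6.86, 7.26 and 6.80 in controls. At 48 h the levels were 8.64, 8.16 and 8.21 in Nnm cells, against 6.71, 7.91 and 6.84 in controls. IFI44 rose by 0.95 at 24 h (SE 0.29, adjusted p = 0.0494) and by 1.18 at 48 h (SE 0.29, adjusted p = 0.0312), and the 24 h call held in 8 of 21 alternative settings. ISG20, an exonuclease that degrades single-stranded RNA, was called at 24 h and not at 48 h. It had log2 levels of 5.56, 5.29 and 5.62 in Nnm cells at 24 h, against 4.79, 4.75 and 4.76 in controls, and 4.79, 4.83 and 4.88 in Nnm cells at 48 h, against 4.78, 4.83 and 4.80 in controls. The 24 h change of 0.72 (SE 0.11) had the lowest adjusted p of the 34 genes at that time, 0.0105, and the 48 h change was 0.03. In the controls of both times and in Nnm cells at 48 h the levels hardly varied (group SDs 0.02 to 0.04). They lay not far above the filter level, so the small SE and 48 h change may reflect a probe set near its background, which was not tested. The difference between the ISG20 changes at the 2 times was -0.69 (unadjusted p = 0.00133, adjusted p = 0.780), so the limma fit did not call it. A second ISG20 probe set was called at 24 h (1.11, adjusted p = 0.0169) and had a change of 0.51 at 48 h (adjusted p = 0.148).

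IFI35, which binds NMI, gave different readings in different replicates. Its log2 levels were 4.96, 7.73 and 5.45 in Nnm cells at 24 h, against 8.03, 7.95 and 7.97 in controls, and 5.99, 8.04 and 6.72 in Nnm cells at 48 h, against 7.64, 7.83 and 7.97 in controls. Nnm replicates 1 and 3 were far below all controls and Nnm replicate 2 was beside them. The 24 h change of -1.94 (SE 0.66) did not pass the test (adjusted p = 0.0690), passed with the replicate block (adjusted p = 0.0302), and was -2.78 without both Nnm arrays numbered 2.

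IFI6, a membrane protein that limits cell death, had log2 levels of 6.85, 6.83 and 7.02 in Nnm cells at 24 h, against 6.83, 6.56 and 6.21 in controls, and 6.92, 7.21 and 7.13 in Nnm cells at 48 h, against 6.65, 6.81 and 6.65 in controls. The groups did not overlap at either time, and the changes of 0.37 and 0.39 did not pass the test (adjusted p = 0.132 at 24 h and 0.139 at 48 h). SAMD9, which restricts poxviruses, changed by -0.43 at 24 h (adjusted p = 0.110, and 0.0393 with the replicate block). A second SAMD9 probe set had the opposite sign at both times, with 0.09 at 24 h and -0.05 at 48 h. The other tested effectors, IFIT5, IFITM1, IFITM3, BST2 and IFI44L, had changes from -0.35 to 0.28 at 24 h and from -0.11 to 0.63 at 48 h, and none was called. A second IFIT5 probe set had changes of -0.99 at 24 h and -0.14 at 48 h, so the signs of the 48 h changes were opposite. IFITM1 and IFITM3 have similar sequences, and their probes may share signal.

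In the group of ISG15 and its conjugation all 5 genes were tested, 2 rose at 24 h and 1 at 48 h. HERC5, the main ligase that attaches ISG15 to new proteins, had log2 levels of 11.10, 10.77 and 11.36 in Nnm cells at 24 h, against 9.91, 10.13 and 9.72 in controls, and 11.41, 10.85 and 11.33 in Nnm cells at 48 h, against 9.67, 10.24 and 9.92 in controls. Groups did not overlap, and HERC5 rose by 1.16 at 24 h (SE 0.22, adjusted p = 0.0157) and by 1.26 at 48 h (SE 0.22, adjusted p = 0.0131). ISG15, the ubiquitin-like modifier, had levels of 9.88, 10.78 and 10.15 in Nnm cells at 24 h, against 10.20, 10.77 and 10.65 in controls, and 9.19, 10.21 and 9.63 in Nnm cells at 48 h, against 9.51, 10.31 and 10.18 in controls. Its changes of -0.27 and -0.32 did not pass the test (adjusted p = 0.586 at 24 h and 0.532 at 48 h).

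USP18 removes ISG15 from proteins and also blocks the interferon receptor. It had log2 levels of 4.09, 3.58 and 4.87 in Nnm cells at 24 h, against 2.56, 3.08 and 2.97 in controls, and 3.27, 3.19 and 4.30 in Nnm cells at 48 h, against 2.41, 3.05 and 3.40 in controls. All control values were under log2 4, so the rise at 24 h is at least 1.13-fold against that level (fitted log2 change 1.31, SE 0.39, adjusted p = 0.0494), and its call held in 7 of 20 alternative settings. USP18 passed the filter on Nnm arrays alone, so it was tested only because of the cells in which it was called higher. UBE2L6, the conjugating enzyme that hands ISG15 to HERC5, changed by 0.60 at 48 h (adjusted p = 0.0844) with no overlap between groups. HERC6, a relative of HERC5, changed by -0.27 at 24 h and by 0.30 at 48 h, and neither passed the test.

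Among the transcription factors and nuclear regulators, 8 of 9 were tested and PARP14 was the only gene called, at both times. PARP14 adds ADP-ribose to proteins. Its log2 levels were 9.16, 9.25 and 9.19 in Nnm cells at 24 h, against 8.50, 8.69 and 8.55 in controls, and 9.45, 9.43 and 9.41 in Nnm cells at 48 h, against 8.62, 8.92 and 8.84 in controls. It rose by 0.62 at 24 h (SE 0.12, adjusted p = 0.0145) and by 0.64 at 48 h (SE 0.12, adjusted p = 0.0142), and replicate 2 took part, with a change of 0.57 at 24 h and 0.51 at 48 h. PARP9 and DTX3L, a pair that form a complex and are transcribed from a shared region, did not follow PARP14 at 24 h: DTX3L changed by -0.04 and PARP9 by -0.47 there, without a call. DTX3L changed by 0.45 at 48 h (adjusted p = 0.0729, and 0.0256 with the replicate block). A second PARP9 probe set had the opposite sign at both times.

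IRF1, a factor that drives many of the listed genes, had log2 levels of 8.43, 6.55 and 7.92 in Nnm cells at 24 h, against 6.67, 6.38 and 6.89 in controls, and 8.89, 6.66 and 8.36 in Nnm cells at 48 h, against 6.73, 6.61 and 6.35 in controls. Nnm replicates 1 and 3 were above all controls and replicate 2 was among them. Its change was 0.99 at 24 h (adjusted p = 0.232) and 1.41 at 48 h (adjusted p = 0.124, and 0.0427 with the replicate block). IRF9, the DNA-binding part of the complex with STAT2, changed by 0.59 at 24 h (adjusted p = 0.109, and 0.0345 with the replicate block) and by 0.53 at 48 h. TRIM21, an antibody receptor of the cytosol, changed by 0.56 at 48 h (adjusted p = 0.0861, and 0.0400 with the replicate block). IRF7 and SP110 had changes between -0.43 and 0.35 over both times, and neither was called, though 1 of 5 tested SP110 probe sets was called lower at 24 h (-0.60, adjusted p = 0.0172).

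The antigen processing genes PSMB9, a subunit of the immunoproteasome, and TAP1, a subunit of the peptide transporter of the endoplasmic reticulum, are neighbours transcribed in opposite directions. PSMB9 had log2 levels of 8.78, 8.63 and 8.12 in Nnm cells at 24 h, against 8.14, 8.23 and 7.97 in controls, and 9.40, 8.54 and 9.26 in Nnm cells at 48 h, against 7.77, 7.88 and 7.84 in controls. The groups overlapped at 24 h (change 0.40, adjusted p = 0.242), and PSMB9 rose at 48 h by 1.24 (SE 0.23, adjusted p = 0.0156). TAP1 had levels of 10.62, 8.89 and 10.57 in Nnm cells at 24 h, against 8.84, 8.92 and 8.87 in controls, and 10.03, 9.10 and 9.91 in Nnm cells at 48 h, against 8.82, 8.82 and 8.80 in controls. Replicates 1 and 3 carried the change of 1.15 at 24 h, which did not pass the test (adjusted p = 0.0770) and passed with the replicate block (0.0390). At 48 h the TAP1 groups did not overlap, and the change was 0.87 (adjusted p = 0.179, and 0.0990 with the replicate block).

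The replicates were then set side by side. The median log2 change of the 34 genes was 0.63, 0.27 and 0.48 in replicates 1, 2 and 3 at 24 h, and 0.68, 0.31 and 0.57 at 48 h. Replicate 2 was positive for 27 of 34 genes at 24 h and 30 of 34 at 48 h, against 21 and 19 in replicates 1 and 3 at 24 h and 28 in each at 48 h. In size, the median absolute change of the 34 genes was 0.79, 0.31 and 0.64 in replicates 1, 2 and 3 at 24 h, and that of all tested probe sets was 0.50, 0.22 and 0.50. At 48 h the figures were 0.77, 0.31 and 0.61 for the 34 genes and 0.47, 0.21 and 0.41 for all probe sets. The smaller size in replicate 2 was therefore seen in the list and in all probe sets. The list was drawn up with the response of replicate 2 in these genes in view, so its signs there are a description only.

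Each of the 9 genes called higher at 24 h was higher in Nnm replicate 2 as well, by 0.36 to 0.93 on the log2 scale, and for each gene this was the smallest of its 3 changes. Each of the 8 genes called higher at 48 h was higher in replicate 2, by 0.26 to 1.81, again the smallest of the 3 changes for each gene. Since a call needs replicates that go together, this describes the called genes and supports nothing about replicate 2. A count that does not use the test took the genes higher by at least 1 in replicates 1 and 3 and asked how many were higher by at least 0.5 in replicate 2. At 24 h this held for 4 of 8 genes, against 38.3% of all probe sets that met the first condition, and at 48 h for 6 of 10, against 48.6%. Both shares are near those of all probe sets.

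**Figure D3:**
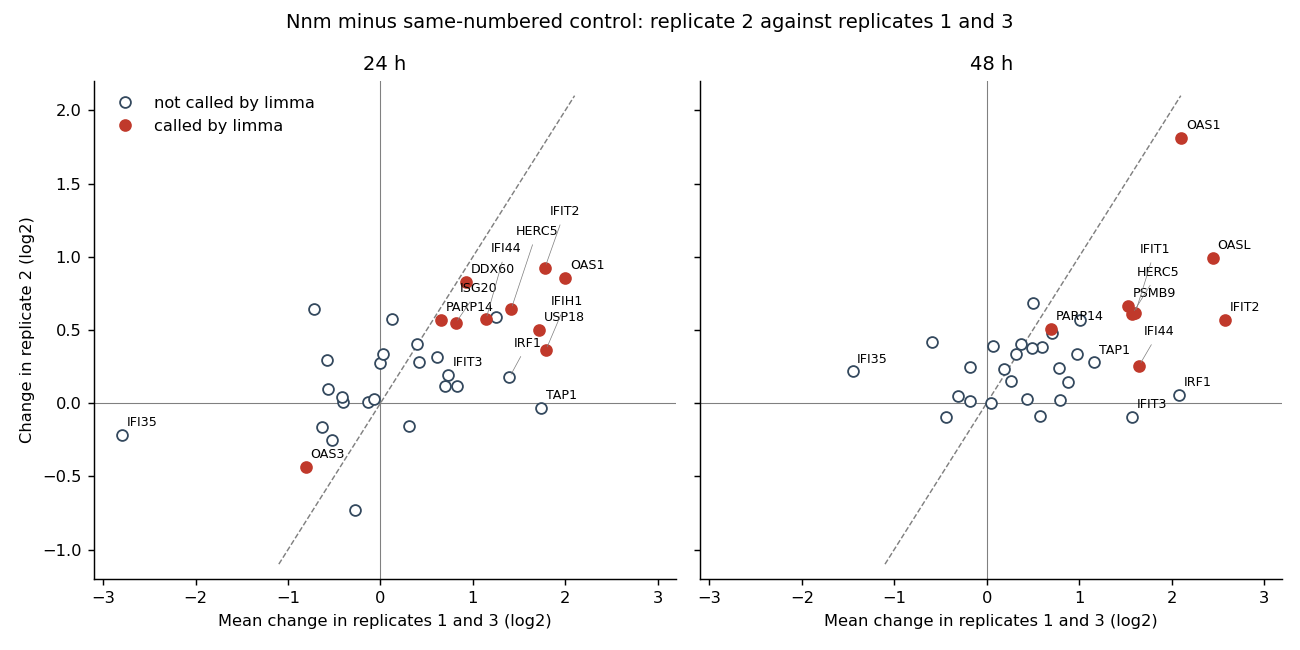
Log2 change from control in replicate 2 (vertical) against the mean change in replicates 1 and 3 (horizontal) for the 34 tested genes at 24 h and 48 h; filled points were called by limma at that time and the dashed line marks equal change. OAS1 at 48 h lies near the line (1.81 in replicate 2), while TAP1 and IRF1 lie far to the right with little change in replicate 2.

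Replicate 2 changes ranged from -0.73 to 0.93 at 24 h and from -0.10 to 1.81 at 48 h, and 4 genes serve as examples. OAS1 changed by 2.22, 0.86 and 1.78 in replicates 1, 2 and 3 at 24 h and by 1.85, 1.81 and 2.36 at 48 h, and DDX60 by 0.83, 0.83 and 1.03 and by 1.19, 0.57 and 0.82. TAP1 changed by 1.78, -0.03 and 1.70 at 24 h and by 1.21, 0.28 and 1.11 at 48 h, and IRF1 by 1.76, 0.18 and 1.03 and by 2.16, 0.05 and 2.01. By role, the sensors had a median replicate 2 change of 0.47 at 24 h, the effectors 0.30, the ISG15 group 0.34, the nuclear regulators 0.02 and the antigen processing genes 0.19, and at 48 h these were 0.45, 0.26, 0.14, 0.38 and 0.47. These role medians rest on 2 to 13 genes and were not tested against each other.

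The controls numbered 2 also stood apart in this list. Control replicate 2 was the highest of the 3 controls for 22 of 34 genes at 24 h, against 30.8% of all probe sets, and for 18 of 34 at 48 h, against 32.3%. The median deviation of the 34 genes from their own control mean was 0.11 in control replicate 2 at 24 h, against -0.07 and -0.03 in replicates 1 and 3, and at 48 h it was 0.10, against -0.13 and 0.02. IFIT1, IFIT2, IFI44, IFIH1 and DDX60 showed this at both times. A higher control level lowers a same-numbered difference, and its part in the smaller changes of replicate 2 was not tested.

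**Figure D4:**
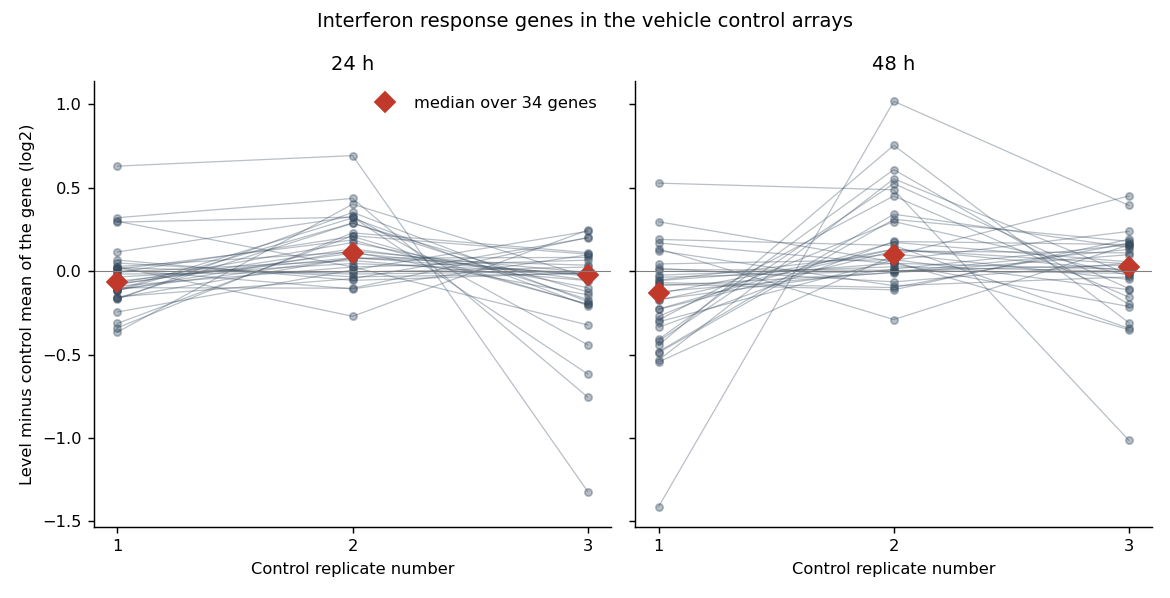
Level of each of the 34 tested genes on each vehicle control array minus the mean of that gene's 3 controls (log2), at 24 h and 48 h; each grey line is a gene and each red diamond the median over genes. The median was highest in control replicate 2, at 0.11 at 24 h and 0.10 at 48 h.

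The times were compared directly. For the difference of the Nnm effects, 48 h minus 24 h, the limma fit called 0 of the 34 genes and 0% of all probe sets (0 of 22829). At an unadjusted p under 0.05 it held 6 of the 34 genes and 6.21% of all probe sets (1418 of 22829). The 6 genes were ISG20, with a smaller change at 48 h, and OAS3, IFIT5, SAMD9, DTX3L and PSMB9, with higher ones at 48 h. Between control cells at 48 h and 24 h 0 genes and 0% of probe sets were called by limma. An unadjusted p under 0.05 was found for 1 of the 34 genes (OAS3) and 8.04% of all probe sets (1836 of 22829). Between Nnm cells at 48 h and 24 h limma called 0 genes and 0% of probe sets. There 8 of the 34 genes and 13.7% of all probe sets (3138 of 22829) had an unadjusted p under 0.05. A gene called at 1 time only is therefore not shown to differ between the times.

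Other genes of the pathway were read from lists outside the 40. Their counts stand beside 7.32% of all tested probe sets called higher and 7.42% called lower at 24 h. At 48 h these shares are 5.74% and 4.44%. All 8 measured interferon genes stayed under log2 4, with IFNB1 between 2.28 and 2.34 on all 12 arrays, so no direction can be given for them. CXCL10, a chemokine that interferon induces strongly, stayed between 2.07 and 2.09.

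Of 10 tested receptors and kinases, 1 rose and 1 fell at 24 h, and 2 rose at 48 h. JAK2 had log2 levels of 6.55, 4.98 and 6.76 in Nnm cells at 24 h, against 3.82, 3.77 and 3.32 in controls, a rise of at least 4.28-fold against log2 4 (fitted change 2.46, adjusted p = 0.0196). Every JAK2 control of both times was under log2 4. JAK2 thus passed the filter on Nnm arrays alone and was tested only because of the cells in which it was called higher. TYK2, the kinase bound to IFNAR1, had 6.73, 7.70 and 7.21 in Nnm cells at 24 h, against 8.41, 8.06 and 8.36 in controls, and fell by 1.06 (adjusted p = 0.0303). IFNAR1, a subunit of the type I interferon receptor, had 8.51, 8.56 and 8.65 in Nnm cells at 48 h, against 7.61, 8.10 and 7.70 in controls, and rose by 0.77 (adjusted p = 0.0154). IL10RB, a subunit of the type III receptor, rose by 0.78 at 48 h (adjusted p = 0.0201). Both receptor subunits kept their Nnm and control arrays apart at 48 h, and neither was called at 24 h.

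Of 10 other tested sensors and adaptors, 1 rose at 24 h and 2 at 48 h. TLR3, the endosomal receptor of double-stranded RNA, had log2 levels of 6.71, 5.33 and 6.86 in Nnm cells at 24 h, against 4.0, 4.83 and 5.19 in controls, and 6.73, 6.28 and 7.06 in Nnm cells at 48 h, against 4.91, 4.96 and 5.30 in controls. It rose by 1.62 at 24 h (adjusted p = 0.0320) and by 1.64 at 48 h (adjusted p = 0.0369). CGAS, which senses cytosolic DNA, had 6.75, 6.08 and 7.45 in Nnm cells at 48 h, against 4.75, 5.19 and 5.70 in controls, and rose by 1.54 at 48 h (adjusted p = 0.0340), with a change of -0.07 at 24 h. The CGAS controls stood at 5.96, 6.21 and 6.52 at 24 h and differed by -1.02 at 48 h (limma, unadjusted p = 0.0232, adjusted p = 0.550). Nnm cells at 48 h differed from Nnm cells at 24 h by 0.60. RIGI, the sensor of RNA with a triphosphate end, changed by 0.25 at 24 h and 0.46 at 48 h (adjusted p = 0.588 and 0.337).

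Of 7 tested negative regulators, PTPN2, a phosphatase of JAK and STAT proteins, rose by 0.91 at 24 h (adjusted p = 0.0372) and none was called at 48 h. At 48 h 2 of the 7 had an unadjusted p under 0.05 in limma, against 30.6% of all probe sets. IRF2, an antagonist of IRF1, changed by 1.33 at 24 h (adjusted p = 0.0713, and 0.0183 with the replicate block). SOCS3, an inhibitor of receptor signalling, changed by -0.71 at 48 h (adjusted p = 0.0851, and 0.0169 with the replicate block).

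Of 20 other tested genes known to be induced by type I interferon, 1 rose and 2 fell at 24 h, and 6 rose and 1 fell at 48 h. GBP2, a guanylate-binding protein that attacks the vacuoles of microbes, had log2 levels of 9.72, 9.86 and 9.33 in Nnm cells at 24 h, against 8.15, 8.67 and 7.43 in controls, and 10.54, 9.64 and 9.90 in Nnm cells at 48 h, against 8.46, 9.08 and 8.49 in controls. It rose by 1.56 at 24 h (adjusted p = 0.0205) and by 1.35 at 48 h (adjusted p = 0.0336). At 48 h PLSCR1, a scramblase of membrane lipids, rose by 1.15 (adjusted p = 0.0169), GBP3 by 1.15 (adjusted p = 0.0235) and NMI, a binding partner of STAT proteins, by 0.54 (adjusted p = 0.0194). PARP10 and SP100 were the other genes that rose at 48 h. PNPT1, an RNA-degrading enzyme of mitochondria, fell by 0.84 at 24 h (adjusted p = 0.0164) and by 0.88 at 48 h (adjusted p = 0.0152), and TRIM14, which acts at the adaptor of RIGI and IFIH1, fell by 1.53 at 24 h (adjusted p = 0.0455).

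Of 16 tested genes of class I antigen presentation outside the 40, 1 fell at 24 h and 0 were called at 48 h. At 48 h 3 of the 16 had an unadjusted p under 0.05 in limma, against 30.6% of all probe sets. PSMB10, a further immunoproteasome subunit, had 7.28, 8.49 and 7.18 in Nnm cells at 24 h, against 8.72, 8.65 and 8.84 in controls, and fell by 1.09 (adjusted p = 0.0367). PSMB8, another subunit induced with PSMB9, changed by -0.41 at 24 h and -0.45 at 48 h (adjusted p = 0.110 and 0.105). B2M, the invariant chain of class I molecules, ranged from 14.29 to 14.50 in Nnm cells at 24 h, against 14.07 to 14.35 in controls, and changed by 0.21 (adjusted p = 0.257). Of the 3 immunoproteasome subunits, PSMB9 rose at 48 h, PSMB10 fell at 24 h and PSMB8 was not called. CALR, a chaperone of class I assembly, changed by -0.74 at 48 h (adjusted p = 0.147, and 0.0378 with the replicate block). Over all 63 tested pathway genes outside the 40, 4 rose and 4 fell at 24 h, against 7.32% and 7.42% of all probe sets. At 48 h 10 rose and 1 fell, against 5.74% and 4.44%. The median log2 changes were 0.16 at 24 h and 0.29 at 48 h. With the replicate block 7 rose and 5 fell at 24 h, against 14.2% and 15.1% of all probe sets. In that fit 13 rose and 3 fell at 48 h, against 11.9% and 10.2%. Only the counts of genes that rose at 48 h exceed these shares.

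**Figure D5:**
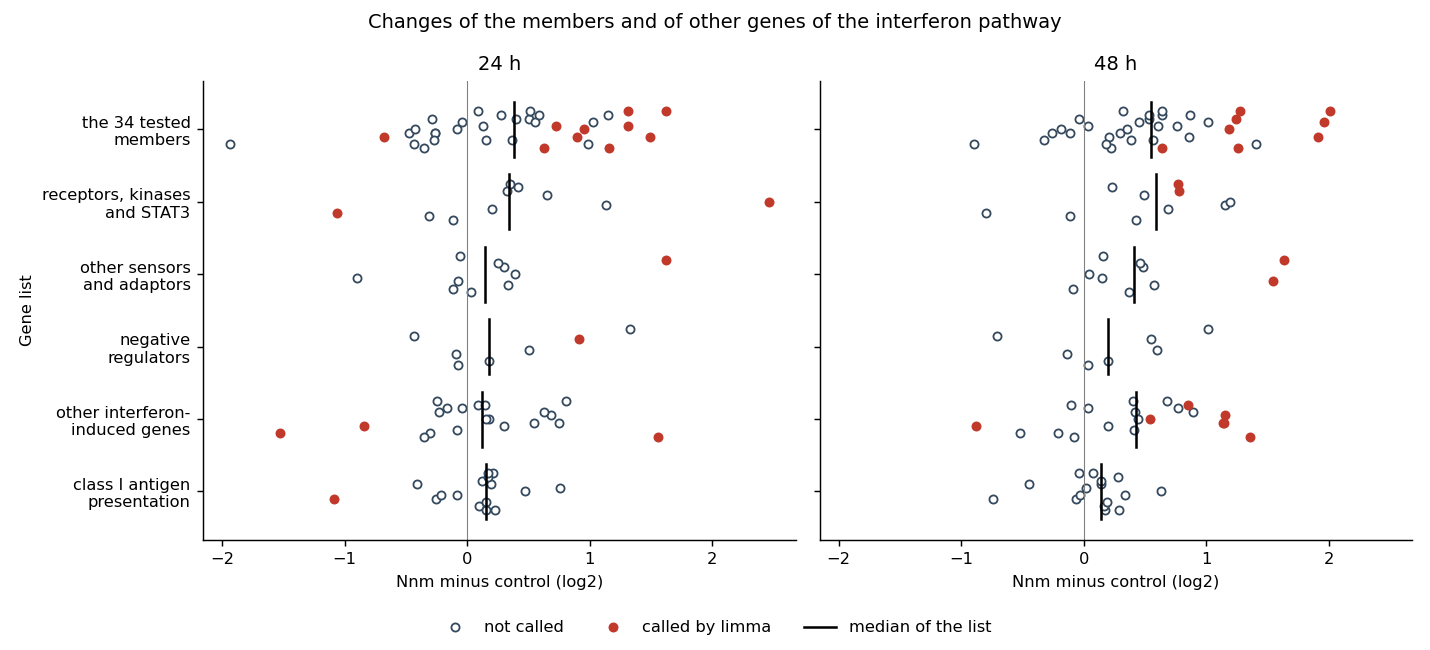
Fitted log2 change, Nnm minus control, at 24 h and 48 h for the 34 tested interferon response genes and for 5 lists of other pathway genes; each point is a gene, filled where limma called it, and black bars are list medians. The 34 genes had medians of 0.38 at 24 h and 0.55 at 48 h, and the class I antigen presentation list had 0.16 and 0.14.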

How the data were processed

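HK-2 cells were profiled on 12 single-channel Affymetrix arrays, 1 per sample. The deposited values are log2 expression, and the submitters' processing notes name GCRMA, a method that models background from probe sequence and normalises between arrays. Low values sit together near the bottom of the scale, so low genes have little room to fall. Arrays give no read depth, and their number (3 per group) limits the precision. Probe sets were named from the platform annotation: 41091 of the 54675 name 1 gene, 1801 several and 11721 none, and 62 control sets were left out.

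Probe sets above log2 4 on at least 3 arrays (22829) were fitted with limma 3.58.1 in R 4.3.3 (lmFit, contrasts.fit, eBayes), with 4 groups, 8 residual degrees of freedom and Benjamini-Hochberg adjustment over all of them. The script was tested on simulated data. Replicate numbers paired the samples: deviations from group means correlated at 0.16 to 0.67 in all 18 same-numbered pairs. The 36 other pairs had a median of -0.21. Centring on group means makes them negative where same-numbered pairs are positive, so that median is no independent comparison. No label says what a number shares. A fit with the number as a block (6 residual degrees of freedom) was an alternative, as were filters, scalings, a variance trend, fits of fewer arrays and each array left out.

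The members and lists were chosen with earlier results of these data known. Genes were named by a rule: members called at a time, or with groups that do not overlap at both times, get every array's value; other members are named by the smallest p, up to 4 per role; IFI35, IRF1, TAP1, IFIT3 and ISG15 were given per array after their values were seen. From each pathway list called genes were named, up to 5, or the 2 of smallest p; TRIM14, PARP10 and SP100 were added. Promoter sequences are RefSeq's (GRCh38.p14).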

Additional observations from a re-analysis of the deposited data

Results flagged for a closer look

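OAS3 stood out by opposite signs at the 2 times: the Nnm array was below its same-numbered control in all 3 replicates at 24 h (-0.81, -0.44 and -0.81 on the log2 scale) and above it in all 3 at 48 h (0.30, 0.23 and 0.08). The difference of the Nnm effects, 48 h minus 24 h, was 0.89, with an unadjusted p of 0.00245 and an adjusted p of 0.780 over all probe sets in limma, so the fit did not call it. Control cells were lower at 48 h than at 24 h by -0.64, while Nnm cells at 48 h differed from Nnm cells at 24 h by 0.25.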

How the results depend on the processing

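Counts of the 34 genes moved with the settings, and no called value changed direction. Genes higher at 24 h (9 in the fit reported) numbered 4 with no filter, 0 with only the arrays compared, 14 without both Nnm arrays numbered 2, and 0 to 12 with 1 array left out. Genes lower at 24 h (1) numbered 0 with no filter, 3 with the replicate block, 0 with only the arrays compared, 5 without both Nnm arrays numbered 2, and 0 to 4 with 1 array left out. Genes higher at 48 h (8) numbered 5 with no filter, 13 with the replicate block, 1 with only the arrays compared, 17 without both Nnm arrays numbered 2, and 1 to 14 with 1 array left out. Genes lower at 48 h (0) numbered 2 without both Nnm arrays numbered 2 and 0 to 1 with 1 array left out. Probe sets called at 24 h (3366) numbered 848 with no filter, 6700 with the replicate block, 112 with only the arrays compared, 10730 without both Nnm arrays numbered 2, and 81 to 8683 with 1 array left out. Probe sets called at 48 h (2323) numbered 842, 5046, 115, 9605, and 207 to 6117 in the same order. The difference between times called 8 genes without both Nnm arrays numbered 2 and 0 to 3 with 1 array left out (OAS3, IFIT5 and ISG20 without Nnm replicate 2 of 24 h). The 8 genes were OAS3, IFIT3, IFIT5, ISG20, IFI35, UBE2L6, PSMB9 and TAP1. The share of all probe sets called for this difference in these fits was not computed, so these counts have no background beside them. Tests with only the arrays compared have 4 residual degrees of freedom, and unfiltered ones adjust over more probe sets; the cause of the other shifts was not tested. With quantile normalization, median centred arrays, the stricter filter and the variance trend, the counts of higher genes were 7 to 9 at 24 h and 8 to 9 at 48 h. Of 376 alternative values for the 18 called changes, 264 kept their call and 112 lost it, and of 1046 values for changes not called, 59 gained one. The replicate block lost none of the 18 calls.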
